A study of Mus musculus with 24 samples.

Results

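The 40 genes described here encode the factors that build ribosomes in the nucleolus, followed in mouse aorta across 4 groups. They were taken by symbol from a list of nucleolar rRNA processing and assembly factors, chosen with earlier results of these data known. All 40 were found among the 21959 genes of the count table, and all 40 passed the low-count filter that left 14216 genes for testing. The study sequenced poly(A)-selected RNA from aortas of male mice, dissected from the ascending aorta to the abdominal bifurcation. The WT group (n = 6) and the ATAD3A-KI group (n = 5, KI below) drank plain water. The WT-BAPN group (n = 7) and the ATAD3A-KI-BAPN group (n = 6, KI-BAPN below) had β-aminopropionitrile (BAPN) at 0.5% (w/v) in their drinking water for 28 days from 3 weeks of age. BAPN blocks lysyl oxidase, which cross-links collagen and elastin, and is used to bring on aortic aneurysm and dissection. ATAD3A is an ATPase of the mitochondrial inner membrane, and the labels do not state which promoter or cell type drives the knock-in allele. The plain-water groups were kept in the same way without BAPN. The labels do not say whether each library is 1 mouse, so p-values measure the spread between libraries.

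Ribosome production starts with RNA polymerase I, which transcribes the rDNA into a long precursor of the 18S, 5.8S and 28S rRNAs. Small nucleolar ribonucleoproteins (snoRNPs) modify this precursor: box C/D particles guide ribose methylation and box H/ACA particles guide pseudouridylation. The small subunit processome folds and cuts the 18S part, a separate set of factors assembles the large (60S) subunit, and the output follows the growth state of the cell. MYC is a known activator of many of these genes. In the artery wall, as in other tissues, growing and dividing cells make more ribosomes than resting ones. The libraries hold mRNA only, so the data measure the factors' transcripts and not rRNA or ribosomes.

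The RefSeq promoter table (build GRCm38.p6) held 34 of the 40 members, in 36 windows. These windows were searched over the 250 bases before the start, on both strands, for 5 motifs. The E-box CACGTG, the sequence bound by MYC and its relatives, was present in 4 of 34 members (11.8%), namely Imp4, Nop2, Rrn3 and Utp18, against 6.86% of the 27025 genes in the table. CCGGAAG, a sequence of the kind bound by ETS factors, was present in 7 of 34 (20.6%) against 7.83%. CCAAT was present in 12 of 34 (35.3%) against 37.5%, and TATAAA in 2 of 34 (5.88%) against 14.3%. The palindrome bound by NRF1 was present in 0 of 34 against 0.877%. These are counts of letters in a window and not of bound sites. The median GC content was 57% in the members' 36 windows and 52.4% in all 32851 windows. The background was not matched for base composition or for expression in aorta. The 100 bases before the start are shown for 5 members that were lower on BAPN in the WT comparison, each 5′ to 3′ on the gene's own strand, because they cover promoters with an E-box, with CCGGAAG, with both and with neither. Capitals mark CACGTG and CCGGAAG.
Nop2 (chr6:125131783-125131882, plus strand): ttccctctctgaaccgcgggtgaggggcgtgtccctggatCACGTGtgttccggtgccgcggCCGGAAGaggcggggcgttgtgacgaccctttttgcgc
Rrn3 (chr16:13780599-13780698, plus strand): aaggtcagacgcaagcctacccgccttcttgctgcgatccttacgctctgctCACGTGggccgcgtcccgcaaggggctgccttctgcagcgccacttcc
Nolc1 (chr19:46075747-46075846, plus strand): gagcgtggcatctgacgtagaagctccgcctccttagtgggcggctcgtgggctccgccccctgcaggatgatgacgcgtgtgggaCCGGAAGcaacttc
Nop56 (chr2:130274312-130274411, plus strand): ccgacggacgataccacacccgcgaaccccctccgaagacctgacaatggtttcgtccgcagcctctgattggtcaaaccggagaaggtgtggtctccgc
Ddx21 (chr10:62602299-62602398, minus strand): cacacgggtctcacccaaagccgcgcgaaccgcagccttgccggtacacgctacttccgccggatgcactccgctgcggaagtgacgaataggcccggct
In Nop2 the E-box begins 60 bases before the start, in Rrn3 it begins 48 bases before it, and in Nolc1 CCGGAAG begins 14 bases before it. Nop56 and Ddx21 hold neither motif in the stretch shown.

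Library totals were 13127645 to 26490651 counts, and the values below are counts per 1000000 counts of the library (CPM) after TMM normalisation unless stated. The genotype labels matched the level of the knock-in gene: Atad3a stood at 24.9 to 61.4 CPM in the 13 libraries without the allele and at 231 to 1629 CPM in the 11 with it. The smooth muscle genes Myh11 (2046 to 11873 CPM) and Acta2 (4198 to 39695 CPM) were high in all 24 libraries, whereas Tagln was counted at only 9.73 to 54.6 CPM. Some libraries held RNA of other tissue. The mean log2 CPM of skeletal muscle genes was 9.02 in WT 5 and at most 1.56 elsewhere, and KI 1, KI 2 and KI 5 were high in sympathetic neuron genes (3.70, 7.46 and 4.61, against at most 1.33 in the other libraries except WT 5, at 2.90). WT 5 was also highest in airway epithelium genes (10.27), B cell genes (6.27) and T cell genes (5.02). Airway genes reached 3.75 in KI 3 and 3.04 in WT 1. Adipocyte genes reached 8.42 in KI-BAPN 3, 8.35 in KI 5 and 7.18 in KI-BAPN 2. Their summed level reached 8636 CPM in KI and 8634.5 CPM in KI-BAPN, against 5568 CPM for skeletal muscle genes in WT. KI-BAPN 3 also had the highest mean log2 CPM of macrophage genes (7.08) and the lowest of smooth muscle genes (8.22) of the 24 libraries. KI-BAPN 2 and KI-BAPN 3 were kept in the counts without WT 5, KI 1, KI 2 and KI 5. WT-BAPN 7 stood apart from its group in the genes described here, where its summed level was the highest of the group. Member counts without it therefore follow in part from how it was chosen. Counts are given below with and without WT 5, KI 1, KI 2 and KI 5 together, which leaves 5 WT and 2 KI libraries, and without WT-BAPN 7, where these omissions change them. In bulk tissue, fewer cells of a type and less RNA per cell cannot be told apart.

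All 40 members were expressed in each of the 4 groups, at low to moderate levels. Per kilobase of the deposited gene length, averaged over all libraries, the highest were Npm1 (102 CPM per kb), Nop10 (63.9), Imp3 (58.8), Rrp1 (41.0) and Ncl (28.4), and the lowest were Wdr12 (1.53), Utp20 (1.77) and Polr1a (2.05). Npm1 and Ncl encode nucleophosmin and nucleolin, the abundant scaffold proteins of the nucleolus. The deposited length of Wdr12, at 11955 bases, and that of Polr1a, at 11871 bases, are long, which lowers a value per kb. Replicates varied less for the median member than for the median gene: the SD of log2 CPM within groups had a median of 0.262 over the 40 members, from 0.116 for Wdr43 to 0.586 for Nhp2, and a median of 0.403 over all genes. The genes compared were not matched for level, so the smaller spread is not shown to be particular to the members.

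Summed over the 40 members, transcripts were most abundant in WT, at 2279 ± 112 CPM (SD, n = 6; lowest 2148, median 2277, highest 2453). WT-BAPN stood at 1726 ± 330 CPM (n = 7; lowest 1440, median 1650, highest 2390). KI stood at 1950 ± 229 CPM (n = 5; 1871, 1589, 2027, 2148 and 2116.5 in KI 1 to 5) and KI-BAPN at 1867 ± 113 CPM (n = 6). In the plot of summed transcripts by library, 6 of the 7 WT-BAPN libraries lie below every WT library, and WT-BAPN 7 lies among the WT libraries at 2390 CPM. The share of all counts, which needs no normalisation factor, was 0.214 ± 0.0204% in WT, 0.178 ± 0.0155% in WT-BAPN, 0.195 ± 0.00555% in KI and 0.189 ± 0.0157% in KI-BAPN. The order of the groups was the same on that scale, but the WT range (0.194 to 0.254%) and the KI range (0.187 to 0.202%) overlapped.

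**Figure D1:**
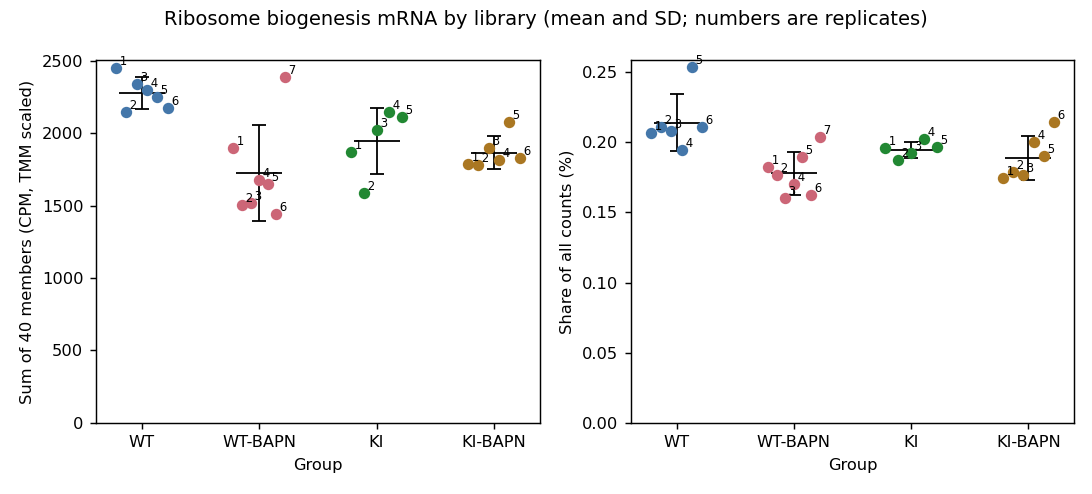
Sum of the 40 ribosome biogenesis factors in each library, by group, as CPM after TMM normalisation and as a percent of all deposited counts. Points are libraries numbered by replicate and bars are mean ± SD (n = 6, 7, 5 and 6). WT-BAPN 7 (2390 CPM) lies among the WT libraries (2148 to 2453 CPM), and the other WT-BAPN libraries lie at 1440 to 1900 CPM.

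BAPN in WT mice was the comparison in which edgeR called ribosome factors. Of the 40, 12 fell (30.0%), 0 rose, and the fitted change was below 0 for all 40. Over all 14216 genes tested, 2.70% fell, 3.44% rose and 53.4% had a fitted change below 0. The changes were moderate: the members' median log2 change was −0.38, against −0.036 over all genes, and those that fell lay between −1.04 and −0.31. Calls are from edgeR's quasi-likelihood test at a Benjamini-Hochberg adjusted p under 0.05. At an unadjusted p under 0.05, 27 of 40 (67.5%) were lower, against 12.5% of all genes. With library totals alone as the scale the number was 16, against 7.81% of all genes.

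The 3 box C/D proteins among the members fell. Nop56, a scaffold of the particle, had 74.8 CPM in the lowest WT library, a median of 84.1 and a highest value of 101, against 49.5, 59.9 and 65.0 in WT-BAPN. The groups did not overlap, and the log2 change was −0.54 ± 0.11 (SE; adjusted p = 0.0122). Fbl encodes fibrillarin, the methyltransferase of the particle. It had 46.4, 51.2 and 68.1 CPM (lowest, median, highest) in WT and 26.5, 29.3 and 53.7 in WT-BAPN, where the highest value was WT-BAPN 7. The other 6 WT-BAPN libraries lay below every WT library, and the log2 change was −0.71 ± 0.16 (adjusted p = 0.0190), a WT-BAPN level 0.611 times that in WT. Nop58, the partner of Nop56, had 44.5, 51.2 and 64.2 CPM in WT and 25, 34.1 and 54.1 in WT-BAPN, again with WT-BAPN 7 highest. Its log2 change was −0.60 ± 0.16 (adjusted p = 0.0351), and this call was lost in 11 of 23 alternative fits.

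None of the 4 box H/ACA proteins passed the test. Their log2 changes were −0.55 ± 0.33 for Nhp2, −0.42 ± 0.16 for Gar1, −0.32 ± 0.23 for Nop10 and −0.24 ± 0.17 for Dkc1, the pseudouridine synthase, with adjusted p of 0.117 to 0.399. The 95% intervals of Nhp2 (−1.23 to 0.12) and Nop10 (−0.79 to 0.14) include changes as large as those of the box C/D proteins. Nhp2 had 32.1, 34.2 and 42.6 CPM in WT and 13, 15.5 and 64.3 in WT-BAPN. The wide spread of WT-BAPN came from WT-BAPN 7, whose nearest neighbour had 29.2 CPM. A difference between the box C/D and box H/ACA sets was not tested.

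Among the scaffold proteins and chaperones, Nolc1 and Ncl fell and Npm1 did not pass the test. Nolc1, a chaperone that binds both kinds of snoRNP, had 64.0, 70.0 and 81.5 CPM in WT and 32.6, 38.3 and 69.0 in WT-BAPN. The log2 change was −0.70 ± 0.17 (adjusted p = 0.0211), and WT-BAPN 7 was the one treated library within the WT range. Ncl had 311, 347 and 402 CPM in WT and 174, 244 and 327 in WT-BAPN, with a log2 change of −0.57 ± 0.14 (adjusted p = 0.0232). Npm1, at a comparable CPM, had 197, 274 and 330 CPM in WT and 192, 245 and 344 in WT-BAPN. The groups overlapped over nearly their whole range. Its log2 change of −0.07 ± 0.15 (95% interval −0.37 to 0.23; adjusted p = 0.788) was the smallest of the 40, and it turned above 0 when library totals alone set the scale (0.046) and when scores of fat and muscle genes entered the fit (0.0073).

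Of the 15 small subunit factors, 3 fell. Rrp12, which takes part in export of the pre-40S particle, had the lowest log2 change of all members, −1.04 ± 0.27 (adjusted p = 0.0274). It had 14.1, 19.3 and 25 CPM in WT and 5.17, 8.0 and 17.1 in WT-BAPN, and the groups overlapped only through WT-BAPN 7. Nop14, a processome scaffold, had 25.1, 29.4 and 33.1 CPM in WT and 18.7, 20.3 and 24.8 in WT-BAPN, without overlap. Its log2 change was −0.47 ± 0.11 (adjusted p = 0.0210). Wdr43, a subunit that joins the processome to rRNA transcription, had 44.7, 48.7 and 53.0 CPM in WT and 37.3, 38.9 and 43.7 in WT-BAPN. These groups were also separate, and the log2 change was −0.31 ± 0.08 (adjusted p = 0.0286). The other 12 had log2 changes of −0.55 to −0.18. Imp4, which binds the U3 snoRNA, came nearest to the threshold (−0.55 ± 0.18, adjusted p = 0.0628). Its partner Imp3 was at −0.18 ± 0.19 (adjusted p = 0.596).

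Of the 10 large subunit factors, 2 fell. Rrp1, a factor of 60S maturation, had 130 CPM in the lowest WT library, a median of 155 and a highest value of 178, against 84.7, 102 and 144 in WT-BAPN. Its log2 change was −0.51 ± 0.14 (adjusted p = 0.0335). Nop2, a methyltransferase of the large subunit rRNA whose promoter is shown above, had 25.5, 33.1 and 41.5 CPM in WT and 18.2, 22.1 and 27.9 in WT-BAPN (log2 change −0.56 ± 0.16, adjusted p = 0.0413). Both genes overlapped between the groups. The PeBoW complex of Pes1, Bop1 and Wdr12, needed to make the 5.8S and 28S rRNAs, had log2 changes of −0.46 ± 0.17, −0.32 ± 0.29 and −0.37 ± 0.16, with adjusted p of 0.106, 0.515 and 0.148.

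Of the 5 genes of RNA polymerase I transcription, 2 fell, Ddx21 and Rrn3. Ddx21, an RNA helicase that couples rDNA transcription to processing, had 64.2, 75.5 and 91.7 CPM in WT and 39.1, 47.0 and 64.9 in WT-BAPN. Only WT-BAPN 7 reached the WT range, and the log2 change was −0.61 ± 0.14 (adjusted p = 0.0207). Rrn3 encodes TIF-IA, the factor that brings the polymerase to the rDNA promoter. It had 35.6, 43.8 and 46.9 CPM in WT and 26.2, 31.7 and 38.2 in WT-BAPN, with a log2 change of −0.38 ± 0.11 (adjusted p = 0.0404). The largest subunits Polr1a and Polr1b were at −0.41 ± 0.14 and −0.31 ± 0.14, with adjusted p of 0.0825 and 0.190. Mybbp1a, a nucleolar regulator, was at −0.51 ± 0.17 (adjusted p = 0.0653).

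**Figure D2:**
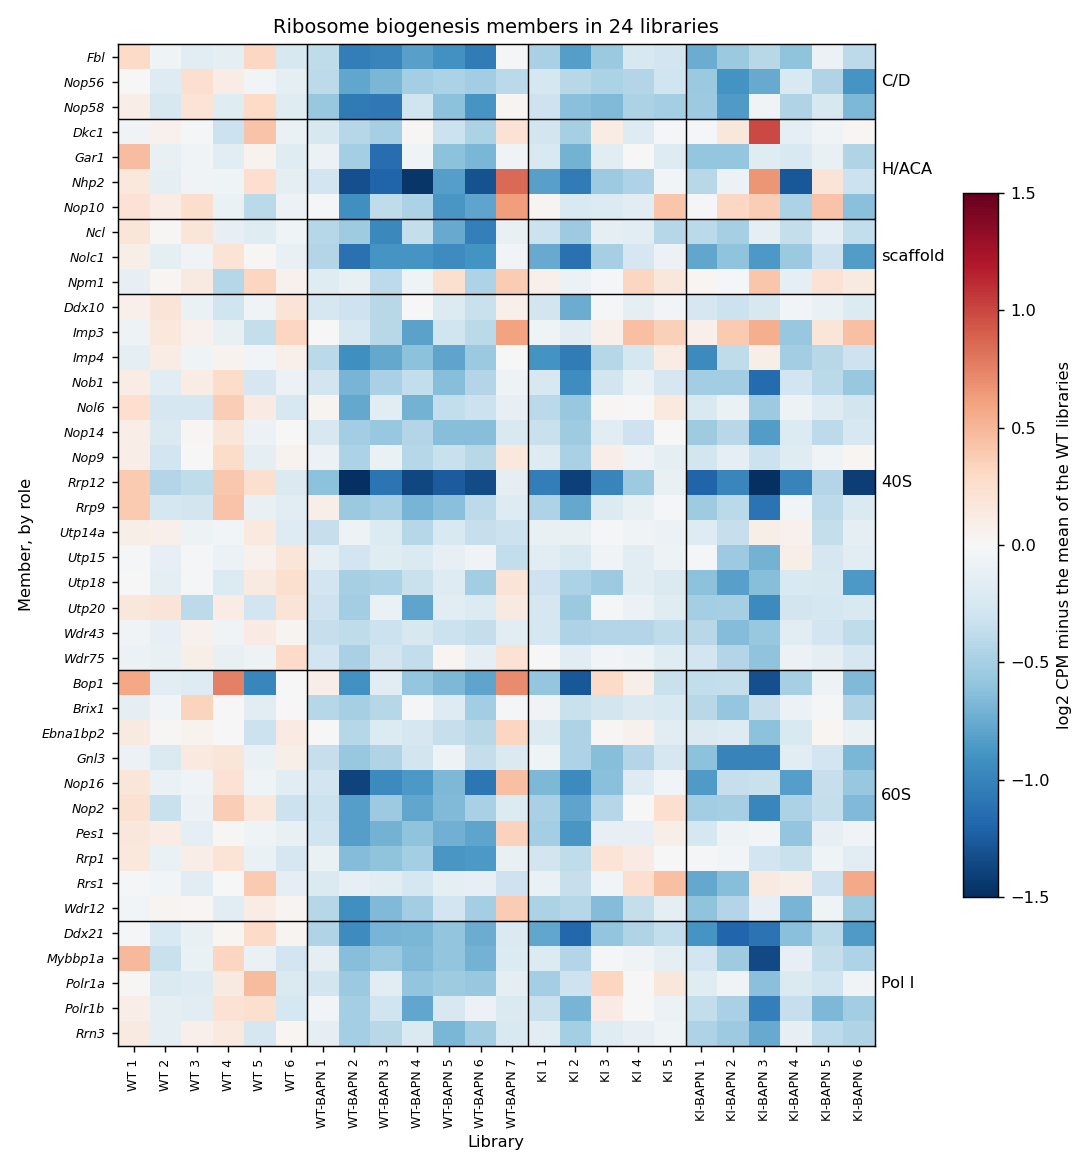
Level of each of the 40 genes in each library, as log2 CPM minus the gene's mean over the WT libraries, ordered by role and by group; colours saturate at the ends of the scale. WT-BAPN libraries are lower than WT in most rows, except WT-BAPN 7, where Nhp2 reaches 64.3 CPM while the remaining 6 lie between 13 and 29.2 CPM.

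The counts depended on WT-BAPN 7, the treated WT library with the highest summed level of the members. It was singled out by these same genes, so the larger counts without it follow from that choice and are not read as a result. With all libraries, Nop56, Nop14 and Wdr43 (7.50% of 40) were lower in every WT-BAPN library than in every WT library, against 0.872% of all genes. Without WT-BAPN 7 the number was 15 (37.5%), Fbl, Nop58, Nolc1, Ncl, Ddx21 and Rrp12 included, against 2.93% of all genes, and 21 members (52.5%) fell in the edgeR fit, against 5.87% of all genes in that fit. Leaving out WT 1 left 5 calls, and leaving out WT-BAPN 2, 3, 5 or 6 left 6 each. WT 3, WT 4 and WT-BAPN 4 each left 8 when omitted, and all 40 fitted changes stayed below 0 in each of these 13 fits. Among these fits, the share of all genes that fell is given only for the one without WT-BAPN 7. Nop56, Fbl, Ddx21 and Nolc1 remained past the threshold in all 23 alternative fits, with a largest adjusted p of 0.0473. Ncl was lost only without WT 1 (adjusted p = 0.0528), and Nop14 only when library totals alone were used (0.0862). Rrp12, Wdr43, Rrp1, Nop58, Rrn3 and Nop2 were each lost in 7 to 12 of the 23, among them the fits without WT 1 and without WT-BAPN 2, 3, 5 or 6. In the fits that left out 1 library their log2 changes stayed at −1.25 to −0.94, −0.33 to −0.28, −0.59 to −0.45, −0.74 to −0.53, −0.43 to −0.34 and −0.62 to −0.48, with largest adjusted p of 0.0624, 0.0560, 0.0739, 0.0779, 0.0878 and 0.0974. Without WT 5, KI 1, KI 2 and KI 5 together, 13 members fell (4.36% of all genes did) and 11 of the 12 were among them.

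Scaling moved the zero of this comparison. With library totals alone the median of all genes was 0.11 and that of the members −0.25, so the members lay 0.36 below all genes, against 0.34 after TMM. On that scale 39 members were lower and 7 fell, against 1.93% of all genes that fell. In the annotation, 10 members overlap exons of a counted gene on the other strand (GENCODE M21), and the strand setting of the counting is not given in the sources used here. Of the 12 that fell, Nop56 is one of these: its partner Idh3b had a log2 change of −0.19 ± 0.20 (adjusted p = 0.578).

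Genes of the same pathway outside the 40 were lower as well. Of 79 other ribosome biogenesis genes, 11 fell and 0 rose, 73 had a fitted change below 0, and the median log2 change was −0.27. Over all genes, 2.70% fell, 3.44% rose and 53.4% had a fitted change below 0. The lists were chosen with earlier results of these data known, so they are no independent check of the members. The lowest adjusted p belonged to Cebpz (−0.51 ± 0.10, adjusted p = 0.0107) and Gtpbp4 (−0.56 ± 0.13, 0.0199), both 60S assembly factors, followed by Lyar (−0.36 ± 0.09, 0.0230) and Wdr74 (−0.54 ± 0.14, 0.0316). Of 17 other RNA polymerase I subunits and factors tested, 1 fell, Cd3eap (−0.75 ± 0.18, adjusted p = 0.0210), a polymerase I subunit, and 0 rose. Myc itself was low and variable, at 6.64 ± 4.77 CPM in WT, 7.75 ± 4.88 in WT-BAPN, 4.78 ± 2.52 in KI and 5.73 ± 3.36 in KI-BAPN, and its log2 change on BAPN was 0.22 ± 0.45 (adjusted p = 0.788). Of 11 genes of the MYC network, 1 passed the test: Mxd3, a MAX partner expressed in dividing cells, rose (3.07 ± 0.71, adjusted p = 0.0199).

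Heat shock genes fell and cell cycle genes rose in the same comparison. Of 12 heat shock genes, 9 fell on BAPN in WT, led by Hspb1 (log2 change −3.09 ± 0.50, adjusted p = 0.00696) and Hsp90aa1 (−1.83 ± 0.32, 0.0107), with a list median of −1.45. Their mean log2 CPM was 8.03 to 9.79 in WT and 6.90 to 7.83 in WT-BAPN, without overlap, and 6.71 to 8.62 in KI and 6.37 to 8.20 in KI-BAPN. Their summed level was 7455 to 22171 CPM in WT and 2559.8 to 6927 CPM in WT-BAPN. Of 20 cell cycle genes, 10 rose, with a list median of 2.20. Their mean log2 CPM was 1.09 to 2.78 in WT and 1.63 to 5.15 in WT-BAPN, and the highest value, 5.15, was that of WT-BAPN 7. Of 20 immediate early genes, 2 fell, 8 were lower at an unadjusted p under 0.05 and 17 had a fitted change below 0, with a list median of −0.73. Of 10 smooth muscle genes, 2 fell, Des and Tagln, and 9 had a fitted change below 0, with a list median of −0.62. Des had a median of 200 CPM and a highest value of 2566 CPM in WT, and the low count of Tagln is given above. The mean log2 CPM of the 10 genes was 8.98 to 10.48 in WT and 8.68 to 9.85 in WT-BAPN. Markers of other tissue were lower as well. All 10 airway epithelium genes (median −10.03) and all 7 skeletal muscle genes tested (−6.65) fell, with 6 of 7 B cell genes (−5.22), 3 of 8 T cell genes (−3.67) and 3 of 10 Schwann cell genes (−2.22). The summed airway level was 8.99 to 22839.6 CPM in WT and 1.96 to 13.3 CPM in WT-BAPN, and that of skeletal muscle genes 9.16 to 5568 and 5.79 to 11 CPM, with WT 5 the highest of each. With WT 5 left out, 11 members fell, 10 of the reported 12 among them, and the members' median was −0.40. The share of all genes that fell in that fit is not given here. The part of the heat shock, cell cycle, immediate early and smooth muscle lists in the members' change was not tested.

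**Figure D3:**
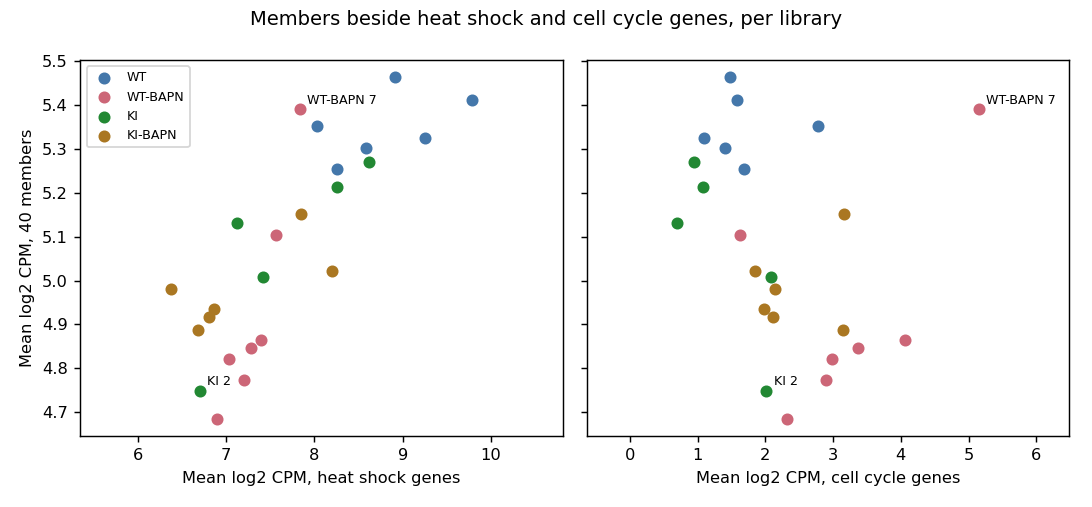
Mean log2 CPM of the 40 genes in each library (vertical axis) beside the mean log2 CPM of 12 heat shock genes (left) and 20 cell cycle genes (right), points coloured by group. WT libraries lie at 8.03 to 9.79 for heat shock genes and WT-BAPN libraries at 6.90 to 7.83; WT-BAPN 7 has the highest cell cycle value (5.15).

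In KI mice, BAPN gave no call among the 40. Their median log2 change was −0.10, against −0.026 over all genes, with 29 lower (53.7% of all genes were) and 11 higher, and 0.0352% of all genes (5 genes) passed the edgeR threshold. DESeq2 and limma voom called 0 members as well, and at an unadjusted p under 0.05 1 member was lower, against 5.21% of all genes: Polr1b (−0.38 ± 0.16, adjusted p = 0.417). This number was 4 without KI 2 and 5 without KI-BAPN 4. The shares of all genes in those fits are not given here, so these counts are not read as a result. Without WT 5, KI 1, KI 2 and KI 5, 34 members were below 0 and the median was −0.18. Polr1b had 17.3, 13.4, 23.8, 21.7 and 20.6 CPM in KI 1 to 5 and 10.8, 15.4 and 17.2 CPM (lowest, median, highest) in KI-BAPN. The other extremes were Rrp12 at −0.34 ± 0.29 and, above 0, Dkc1 at 0.38 ± 0.19 and Nhp2 at 0.45 ± 0.36, with adjusted p of 0.513 to 0.705. Each fit that left out 1 library also called 0 of the 40. The intervals still allow sizeable changes, from −0.94 to 1.19 over the 40 genes. Of the 5 genes called, 3 were sympathetic neuron genes (Syn2, Rab3b and Slc18a2), all lower, from the list high in KI 1, KI 2 and KI 5. At an unadjusted p under 0.05, 9 of 10 macrophage genes (list median 2.25) and 5 of 10 fibroblast genes (1.08) were higher, with 0 called. Of 20 cell cycle genes, 6 were higher at that level and 19 had a fitted change above 0 (list median 1.02), with 0 called. Of 10 airway epithelium genes, 6 were lower at that level (list median −4.22), with 0 called. The part of these lists in the members' values was not tested.

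The box C/D proteins, which fell in WT mice, had these levels in KI mice. Fbl had 39.2, 31.0, 37.3, 46.3 and 44.9 CPM in KI and 32.8, 39.2 and 51.6 CPM (lowest, median, highest) in KI-BAPN, and its log2 change was 0.01 ± 0.18 (95% interval −0.35 to 0.38). The KI libraries lay below the lowest WT library (46.4 CPM) already on plain water. Nop58 had 42.1, 33.8, 33.2, 37.6 and 36.7 CPM in KI and 29.0, 37.1 and 50.4 in KI-BAPN (0.07 ± 0.18). Nop56 had 70.9, 64.1, 61.3, 62.6 and 69.4 CPM in KI and 45.7, 54.2 and 72.7 in KI-BAPN (−0.23 ± 0.12, adjusted p = 0.516). Ncl averaged 285 CPM in both groups (SD 34.3 and 30.0).

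Between genotypes on plain water, the members' fitted levels were mostly lower in KI, and none passed the test. None of the 40 was called (0.190% of all genes, 27 genes, were), 37 had a fitted change below 0 (51.0% of all genes had), and the median log2 change was −0.26, against −0.0095 over all genes. At an unadjusted p under 0.05, 14 (35.0%) were lower, against 8.27% of all genes. Without WT 5, KI 1, KI 2 and KI 5 that number was 4 (2.64% of all genes), with 32 below 0 and a median of −0.19. It was 8 with library totals alone (6.25% of all genes). It was 9 without KI 2 or without WT 6, fits whose shares of all genes are not given here. Wdr43 (−0.40 ± 0.09, adjusted p = 0.0667) and Ddx21 (−0.65 ± 0.16, adjusted p = 0.0799) came nearest. DESeq2 and limma voom each called 3 members lower, Ddx21 among them (adjusted p = 0.00666 and 0.0326), against 1.55% and 1.03% of all genes. Without WT 5 the edgeR fit called 1, against 0.645% of all genes. This comparison uses the same WT libraries as the comparison of BAPN in WT, so the lower values in both are not independent.

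Ddx21 had 44.0, 33.4, 49.9, 55.1 and 58.2 CPM in KI, all below the lowest WT library at 64.2. Wdr43 had 40.7, 35.4, 36.0, 36.0 and 37.5 CPM in KI, also all below the lowest WT value of 44.7. Nop56, Nop58 and Fbl likewise had all their KI values below all their WT values. These 5 genes are 12.5% of the members, against 1.27% of all genes. Leaving out KI 5, the KI library with the highest mean log2 CPM of the members (5.27), gave 11 (27.5%), against 2.10% of all genes. Leaving out a library can only keep or raise such a number, so the 11 is not read as a result. Rrp12 had the lowest log2 change (−0.79 ± 0.29, adjusted p = 0.177), with 9.28, 7.19, 9.55, 13 and 17.6 CPM in KI against 14.1 to 25 CPM in WT. Npm1 (0.08 ± 0.16) and Imp3 (0.14 ± 0.21) had the highest. Heat shock genes were lower in KI as well: their median log2 change was −1.41, 1 of 12 passed the test and 9 of 12 were lower at an unadjusted p under 0.05. Of 20 immediate early genes, 19 had a fitted change below 0 (median −0.54), 4 were lower at that level and 0 were called. Other-tissue markers differed further. All 10 airway, 7 skeletal muscle, 7 B cell and 8 T cell genes tested were lower at an unadjusted p under 0.05 (medians −5.70, −5.38, −5.47 and −4.14), with 0 called. All 10 sympathetic neuron genes were higher at that level (median 3.93), with 3 called. The first 4 lists were highest in WT 5 and the last in KI 2, KI 5 and KI 1, and the counts without these libraries are given above. The part of the heat shock and immediate early genes in the lower levels of the members was not tested.

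On BAPN, no member was called between the genotypes, and the fitted differences lay on both sides of 0. Of all genes, 0.00703% (1 gene) were called. Of the 40, 22 had a fitted change above 0 (47.5% of all genes had) and 18 below, and the median log2 change was 0.024. DESeq2 and limma voom also called 0 members, and 2 were higher at an unadjusted p under 0.05, against 7.27% of all genes: Dkc1 (0.44 ± 0.17, adjusted p = 0.281) and Rrp1 (0.35 ± 0.14, adjusted p = 0.282). Dkc1 had 13.9, 15.7 and 22.9 CPM in WT-BAPN and 18.0, 19.6 and 38.9 in KI-BAPN, so the groups overlapped. Without WT-BAPN 7, 8 members were higher at an unadjusted p under 0.05 (10.3% of all genes), 28 were above 0 and the median was 0.11. With limma voom 9 were higher (9.72% of all genes) and 1 lower (10.6%) at that level, and 27 were above 0. At the ends of the range were Nhp2 (0.45 ± 0.33), Gnl3 (−0.27 ± 0.13) and Bop1 (−0.28 ± 0.30), the last of which changed sign in 3 alternative fits. All 20 cell cycle genes were below 0 (median −1.33), 10 of them at an unadjusted p under 0.05. All 10 adipocyte genes were above 0 (median 1.63), 4 of them at that level, and 0 genes of either list were called. The part of these lists in the members' values was not tested.

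The difference between the BAPN effects in the 2 genotypes, tested as an interaction, was not called for any of the 40 or for any gene (0%). At an unadjusted p under 0.05, edgeR gave 2111 genes, and DESeq2 and limma voom called 9 and 4 genes, none of them members. The fitted interaction was above 0 for 38 of the 40 (50.7% of all genes), with a median of 0.25, against 0.010 over all genes. A value above 0 means a less negative BAPN effect in KI. At an unadjusted p under 0.05, 9 members (22.5%) were above 0, against 6.64% of all genes. Without WT 5, KI 1, KI 2 and KI 5 that number was 0 (2.98% of all genes), with 32 above 0 and a median of 0.19. It was 16 without WT-BAPN 7 (10.3% of all genes) and 17 with limma voom (8.88%). It was 5 without KI 1 and 4 without KI 2, fits whose shares of all genes are not given here. Fbl had the lowest p among them (0.72 ± 0.24, 95% interval 0.22 to 1.22, adjusted p = 0.280), followed by Ncl (0.57 ± 0.20, adjusted p = 0.281) and Nop58 (0.67 ± 0.24, adjusted p = 0.281). Nhp2 had the largest estimate and the widest interval (1.01 ± 0.48, 0.01 to 2.01), and Polr1b (−0.07 ± 0.21) and Wdr75 (−0.02 ± 0.16) the lowest. The fall in WT mice is therefore not shown to differ from the change in KI mice for any single gene. The BAPN comparisons and the genotype comparisons share libraries, and the interaction uses all 4 groups.

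**Figure D4:**
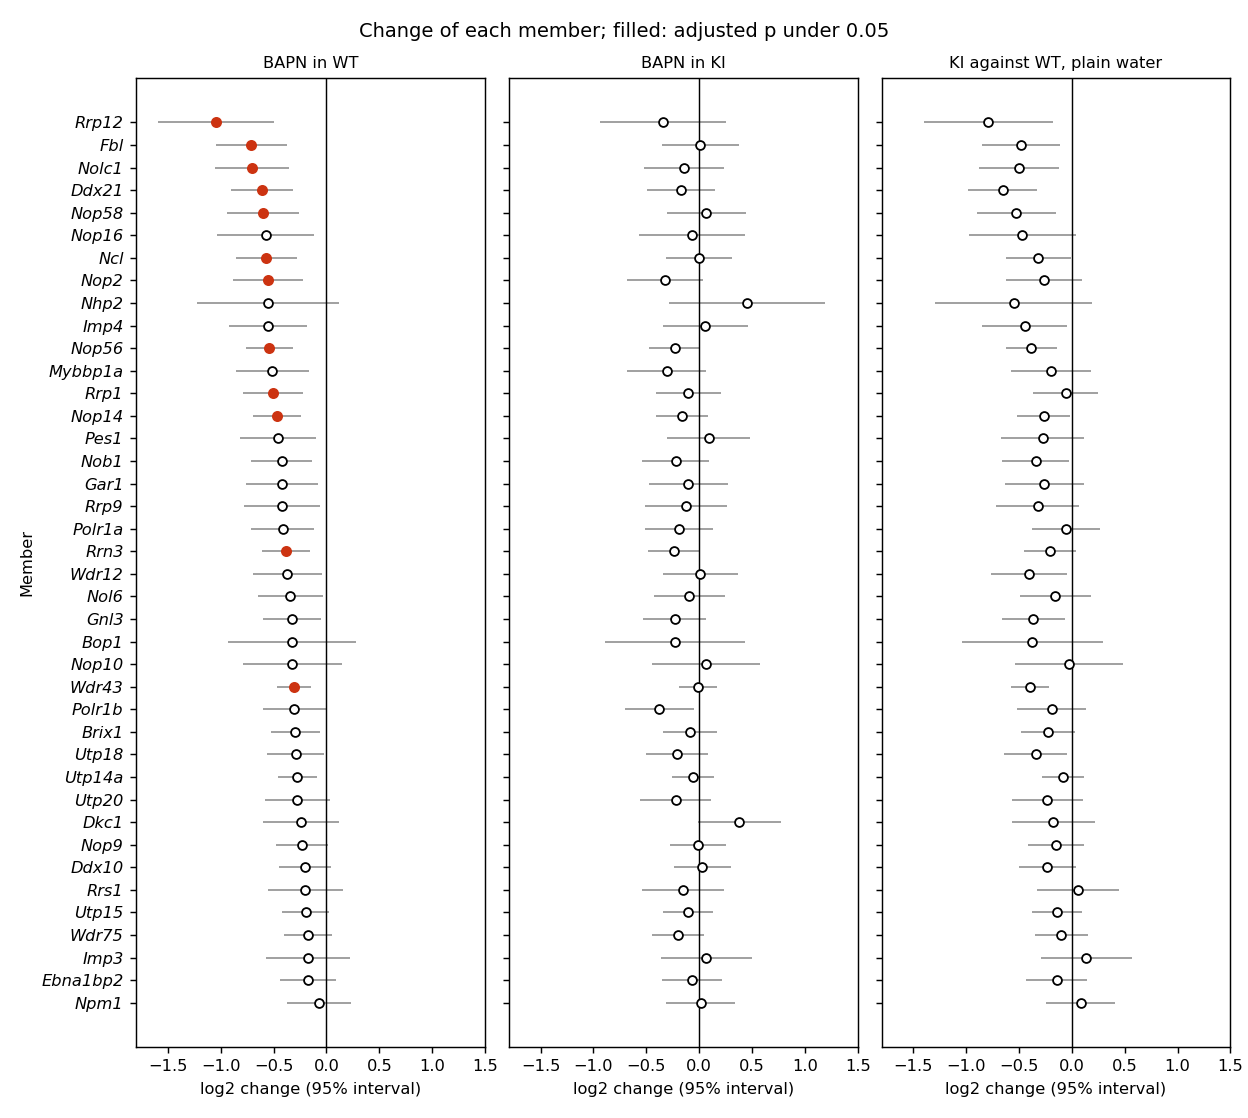
Log2 change of each of the 40 genes for BAPN in WT, BAPN in KI and KI against WT on plain water (horizontal axis), with 95% intervals from edgeR, genes ordered by the first; filled points pass an adjusted p under 0.05. All 40 points lie below 0 for BAPN in WT, with 12 past the threshold, and 0 pass in the others shown.

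The pathway outside the 40 gave no edgeR call in these comparisons either. None of the 79 other ribosome biogenesis genes and none of the 17 other polymerase I genes passed the test for BAPN in KI, for KI against WT on either water, or for the interaction. At an unadjusted p under 0.05, 7, 13 and 4 of the 79 were lower and 1, 0 and 1 higher in the first 3, and 11 of 79 were above 0 in the interaction. Over all genes, 5.21, 8.27 and 6.68% were lower and 4.89, 8.66 and 7.27% higher in the first 3 at that level. In the interaction 6.64% of all genes were above 0 and 8.21% below. The median log2 changes of the 79 were −0.14, −0.17 and −0.01, and the median interaction was 0.12. Of the 17 polymerase I genes, 0, 3 and 0 were lower and 0, 1 and 4 higher at that level, and 5 were above 0 and 1 below 0 in the interaction. Their medians were 0.06, −0.14 and 0.20, and 0.28 for the interaction.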

How the data were processed

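The authors deposited a table of raw read counts per gene with gene lengths, which were used as they stand. Per the submitters' processing notes, reads were processed with Trim Galore, FastQC, HISAT2 and DESeq2 on GRCm38/mm10. Their versions, the counter and its strand setting are not stated in the labels or notes. Counts were fitted with edgeR 4.0.16 (R 4.3.3; quasi-likelihood, robust, 1 mean per group over 24 libraries, TMM, default low-count filter) and p-values were adjusted over 14216 genes. Scores are mean log2 CPM with a prior count of 2. SE is the log2 change divided by the root of F. Alternatives used DESeq2 1.42.0, limma 3.58.1 (voom with quality weights), other filters, scalings and covariates, and omission of each library. The method was tested on simulated counts, with added changes larger than nearly all of the members' changes. The simulated libraries held no RNA of other tissue and no library set apart from its group, so that test does not cover such libraries. Named members were all that passed the threshold, the 2 highest and 2 lowest changes per comparison and the most abundant of each role; others were named after their values were seen. The members and lists were chosen with earlier results of these data known. Scaling by library totals and the counts of non-overlapping genes without single libraries were added after seeing the data. Promoters came from RefSeq by symbol. No 2 libraries of a group matched within sampling noise (chi-square divided by its degrees of freedom at least 32.6). Depth (13127645 to 26490651 counts) bounds the precision of genes with low CPM.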

Additional observations from a re-analysis of the deposited data

Results flagged for a closer look

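Of 96 sets of values (a gene or summed value within a group) checked for a library far from the rest of its group, 3 were flagged, and chance flags about 1 in 20. Nhp2 in WT-BAPN 7 was 64.3 CPM, with the nearest WT-BAPN library at 29.2 CPM. Dkc1 in KI-BAPN 3 was 38.9 CPM, with the nearest KI-BAPN library at 22.2 CPM. Ebna1bp2, a 60S assembly factor, was lowest in WT 5, at 50.1 CPM, with the nearest WT library at 63.0 CPM.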

How the results depend on the processing

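Of 783 recomputed values of named genes, 695 kept their direction and their side of the threshold, 59 lost a call, 12 gained one and 17 changed sign, and all 121 recomputed medians moved by less than the spread between replicates. For BAPN in WT, the members called lower were 7 with library totals alone (1.93% of all genes), 35 with limma voom (15.1%) and 20 with the replicate block (3.47%). The members called were 0 at an adjusted p under 0.01, and 5 to 21 when 1 library was left out. All genes called were 1493 with DESeq2, 4227 with voom, 1396 with fat and muscle covariates, 1524 without WT 5, KI 1, KI 2 and KI 5 (the 4 libraries below), 1831 at 0.1 and 6 at 0.01 (327 to 1609 without 1 library). For BAPN in KI, all genes called were 198 with DESeq2, 103 with covariates, 3 without the 4 libraries, and 0 with library totals, voom, no filter, the stricter filter, only the groups compared, the replicate block or 0.01 (0 to 143 without 1 library). For KI against WT on plain water, members called were 3 with DESeq2, 3 with voom, 1 with the replicate block and 2 at 0.1 (0 to 1 without 1 library), and all genes called were 480, 270, 7 with no filter, 8 with only the groups compared, 1 without the 4 libraries, 196 at 0.1 and 2 at 0.01 (1 to 293). For KI against WT on BAPN, DESeq2 called 19 genes and voom 3, and for the interaction 9 and 4. Changes of sign were Npm1 in WT on BAPN (0.046 with library totals, 0.0073 with covariates), Imp3 in KI against WT on plain water (−0.013 with covariates), Bop1 on BAPN (0.064 with voom, 0.0071 with the replicate block, 0.11 with covariates), Wdr75 in the interaction (0.052, 0.020 and 0.029) and, with 1 library left out, Wdr75 (range −0.094 to 0.052) and Polr1b (−0.18 to 0.015) in the interaction. The cause of these shifts was not tested. Replicate numbers gave no consistent pairing: of 22 same-numbered pairs, 11 correlated over 0.1 (−0.52 to 0.57) and 3 libraries correlated best with their own number. For BAPN in WT the values for replicates 1 to 6 were 0.29, 0.29, 0.30, 0.20, 0.57 and −0.11. For BAPN in KI those for replicates 1 to 5 were 0.40, −0.11, −0.49, −0.04 and −0.11. The replicate block is therefore given only as an alternative. Members whose replicates spread widely, such as Nhp2, had the widest intervals.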
